A study of Oryza sativa with 8 samples.

Results

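Gene by gene, the cold response of roots of a cold-tolerant rice line was set against that of a cold-sensitive line, and the genes whose responses differed between the lines are described here. The measure was the difference of log2 changes, that is the log2 change at 10 °C over 28 °C in tolerant roots minus the same change in sensitive roots. A positive value therefore marks a gene whose change in the cold was more positive in tolerant roots. All 35835 rice loci with a p-value for both responses were members, of 42189 IDs in each table, and 26199 of them also passed the low-expression filter and entered the test. The 9636 members that did not pass have no call.

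Both lines are indica rice, and their names in the labels share the stem IRGA 959. Both were grown in nutrient solution at 28 °C for about 30 days, until the seedlings had 3 leaves, and moved to a growth chamber at 10 °C or kept at 28 °C. The 4 groups of roots sequenced were tolerant at 10 °C, tolerant at 28 °C, sensitive at 10 °C and sensitive at 28 °C, with 2 libraries of 4 plants each. The sources conflict on the time in the cold, which is 24 h in one protocol and up to 10 days in another and in the titles of the cold samples. Each line is a single genotype, so a difference is one between these 2 lines. The labels call the libraries biological replicates without saying what was separate, and p-values then measure only the spread between these libraries.

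Chilling slows growth and water uptake in roots of rice, a plant of warm climates, and it sets off a broad change of transcription. Known parts of that change are the DREB transcription factors, which bind cold-response promoters, the hormone abscisic acid, and protective proteins such as dehydrins. Lines that differ in chilling tolerance can differ in the size of these responses, in their direction, or in genes that respond in one line and not in the other. The contrast used here separates such cases from a plain difference in level, since a gene that is higher in one line by the same factor at both temperatures has a difference of 0.

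Depth and the tissue check were as follows. Libraries at 10 °C were shallower, with size factors of 0.679 to 0.991, against 1.10 to 1.25 at 28 °C. A group with 0 reads could have held up to 1.66 normalised counts in tolerant roots at 10 °C, 1.22 in tolerant roots at 28 °C, 1.83 in sensitive roots at 10 °C and 1.28 in sensitive roots at 28 °C, taking 3 reads over the group as the limit. These limits cover counting error only. All 5 loci written as root markers had reads in every group. In bulk roots, fewer cells of a type and less RNA per cell cannot be told apart.

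The cold response differed between the lines at 163 of the 26199 loci (0.622%), with 56 more positive in tolerant roots (0.214%) and 107 more negative (0.408%). The call was an adjusted p under 0.05 in a Wald test derived from the authors' deposited tables, with Benjamini-Hochberg adjustment over all loci tested. Among all tested loci, by contrast, the sign was positive at 51.6% and negative at 48.4%, and the median difference was 0.03. At an unadjusted p under 0.05 there were 2109 loci (8.05%), of which 801 were positive (3.06%) and 1308 negative (4.99%). In the authors' deposited tables, 5314 of the same loci rose (20.3%) and 5171 fell (19.7%) in tolerant roots, 10485 in all (40.0%). In sensitive roots 5966 rose (22.8%) and 5704 fell (21.8%), 11670 in all (44.5%).

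The called differences were large. They spanned 0.91 to 7.81 in absolute log2 units, with a median of 2.29 and quartiles of 1.65 and 3.03, and 161 of the 163 were at least 2-fold. A call needed a statistic of at least 3.61. At the median standard error of 0.52, among the 20132 loci with a mean of at least 20 normalised counts, that is a difference of 1.89. Loci with a smaller standard error were called at smaller differences, down to 0.91. For the called loci, the dispersion behind the deposited standard errors corresponds to a relative SD between replicates of 23.9% at the median, with quartiles of 18.6% and 31.6%.

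**Figure D1:**
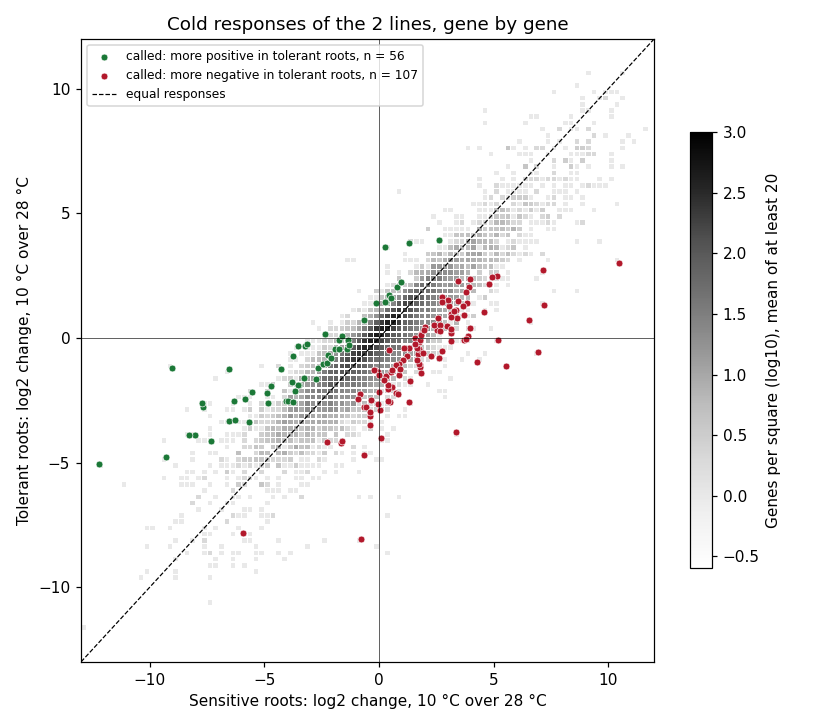
Log2 change at 10 °C over 28 °C in tolerant roots (vertical axis) against sensitive roots (horizontal axis). Grey squares are loci with a mean of at least 20, darker where more loci fall, green points are the 56 loci called more positive in tolerant roots, red points are the 107 called more negative, and the dashed line marks equal responses; most green points lie at falls and most red points right of the line around and above 0.

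The direction of each line's own response sorts the called loci into classes. Of the 163 loci, 33 changed in the authors' deposited table for tolerant roots and not in that for sensitive roots, 4 of them with a positive difference and 29 with a negative one. Another 56 were called in sensitive roots and not in tolerant roots, 13 positive and 43 negative. Both lines changed the same way at 65 loci, by more in tolerant roots at 13 and by more in sensitive roots at 52. In 9 loci both responses were called and ran in opposite directions, and no called locus lacked a call in both lines. These classes describe the called loci and rest on the same responses that made the difference.

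**Figure D2:**
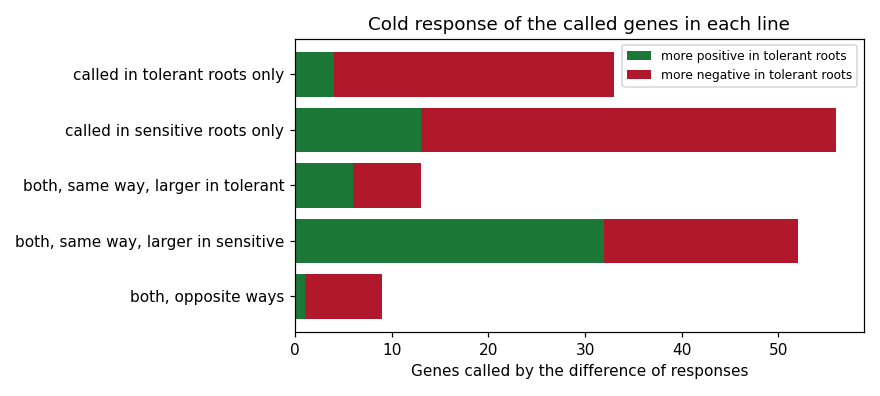
Number of called loci (horizontal axis) in each class of response, with green for loci more positive and red for loci more negative in tolerant roots. Loci called in tolerant roots alone numbered 33 and those called in sensitive roots alone 56, and of the 52 that changed the same way by more in sensitive roots, 32 were more positive in tolerant roots.

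Seen by pattern, the 2 signs had different contents. Most positive differences were falls that were deeper in sensitive roots. Among the 46 loci that fell in sensitive roots and fell less, or did not fall, in tolerant roots, the median log2 change was −1.71 in tolerant and −3.76 in sensitive roots. A rise that was larger in tolerant roots was rare, with 11 loci and medians of 1.74 in tolerant and 0.45 in sensitive roots. Negative differences held rises of sensitive roots and falls of tolerant roots. The 71 loci that rose in sensitive roots and rose less, or did not rise, in tolerant roots had medians of 0.20 in tolerant roots and 2.97 in sensitive roots. At the 44 loci that fell in tolerant roots and fell less, or did not fall, in sensitive roots, the medians were −2.19 in tolerant and 0.15 in sensitive roots. The 9 loci with opposite calls count in 2 of these patterns each.

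The locus IDs have no gene name or function in the sources used here, so in each class only the 2 loci of each sign with the smallest p are named, and no role is given to them. Levels are group values in normalised counts, with standard errors, calculated from the authors' deposited tables. Changes and adjusted p-values of a single line are those of the authors' deposited tables, and adjusted p-values of a difference are from the derived Wald test.

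The loci called in tolerant roots alone included rises and falls. LOC_Os07g09870 had 3644 ± 380.0 normalised counts at 10 °C and 1395 ± 146 at 28 °C in tolerant roots, against 2210 ± 232 at 10 °C and 2433 ± 254 at 28 °C in sensitive roots. It was thus highest in tolerant roots in the cold and lowest in tolerant roots in the warmth, with both levels of sensitive roots between them. Its difference was 1.52 ± 0.30 (SE; adjusted p = 0.000647, derived Wald test). LOC_Os07g22930 had 366 ± 99.3 at 10 °C and 29.4 ± 8.63 at 28 °C in tolerant roots, and 97.8 ± 27.4 at 10 °C and 81.1 ± 22.6 at 28 °C in sensitive roots. The difference was 3.37 ± 0.81 (adjusted p = 0.0129, derived Wald test), again with the tolerant levels on both sides of the sensitive ones. At 28 °C, however, its gap between the lines was not called (adjusted p = 0.652 in the authors' deposited table). Among the falls, LOC_Os09g29490 stood at 48.4 ± 9.38 at 10 °C and 552 ± 90.1 at 28 °C in tolerant roots, whereas sensitive roots held 151 ± 26.3 at 10 °C and 201 ± 33.8 at 28 °C. LOC_Os01g01520 followed the same pattern, at 90.6 ± 16.1 at 10 °C and 358 ± 58.3 at 28 °C in tolerant roots and 262 ± 43.7 at 10 °C and 179 ± 29.9 at 28 °C in sensitive roots. Both were lower in tolerant roots at 10 °C. At 28 °C LOC_Os09g29490 was higher in tolerant roots (adjusted p = 0.00331 in the authors' deposited table), so its order of lines turned round with temperature, while the gap of LOC_Os01g01520 was not called (adjusted p = 0.258). Their differences were −3.10 ± 0.50 and −2.53 ± 0.49, in the order named (adjusted p = 7.54e-06 and 0.000416, derived Wald test).

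Loci called in sensitive roots alone included deep falls from high levels. LOC_Os03g11650 had 957 ± 140 normalised counts at 10 °C and 1201 ± 175 at 28 °C in tolerant roots, and 195 ± 30.2 at 10 °C and 1820 ± 265 at 28 °C in sensitive roots. LOC_Os09g36350 had 2484 ± 283 at 10 °C and 3406 ± 387 at 28 °C in tolerant roots, and 908 ± 105 at 10 °C and 3423 ± 389 at 28 °C in sensitive roots. In both, the cold sensitive roots were the low group and the 3 others lay within 2-fold of each other. The differences were 2.90 ± 0.43 and 1.46 ± 0.33 (adjusted p = 2.18e-07 and 0.00633, derived Wald test). Of the rises, LOC_Os06g35700 stood at 14.2 ± 4.86 at 10 °C and 27.8 ± 8.47 at 28 °C in tolerant roots, and at 126 ± 36.4 at 10 °C and 6.54 ± 2.48 at 28 °C in sensitive roots. Only cold sensitive roots were high there, and the difference was −5.24 ± 0.95 (adjusted p = 0.000144, derived Wald test). LOC_Os06g44034 differed in kind. It had 339 ± 75.2 at 10 °C and 356 ± 78.5 at 28 °C in tolerant roots, and 61.6 ± 14.8 at 10 °C and 1.70 ± 0.93 at 28 °C in sensitive roots, which rests on 4 reads. Tolerant roots were high at both temperatures, and the difference of −5.25 ± 0.97 (adjusted p = 0.000222, derived Wald test) came with a lower level in sensitive roots even in the cold.

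Where both lines changed the same way and tolerant roots by more, LOC_Os03g03880 had 1298 ± 118 normalised counts at 10 °C and 389 ± 36.8 at 28 °C in tolerant roots, and 621 ± 58.5 at 10 °C and 453 ± 42.6 at 28 °C in sensitive roots. The lines were close in the warmth and apart in the cold, with a difference of 1.28 ± 0.27 (adjusted p = 0.00193, derived Wald test). LOC_Os11g18870 rose to 513 ± 94.9 at 10 °C, against 36.6 ± 7.70 at 28 °C, in tolerant roots, and to 240 ± 45.4 at 10 °C, against 97.1 ± 18.8 at 28 °C, in sensitive roots. Its difference was 2.50 ± 0.56 (adjusted p = 0.00578, derived Wald test). LOC_Os06g16160 fell to 160 ± 24.1 at 10 °C, against 1104 ± 155 at 28 °C, in tolerant roots, and to 562 ± 80.3 at 10 °C, against 890 ± 125 at 28 °C, in sensitive roots. LOC_Os02g52730 fell to 100.1 ± 21.7 at 10 °C, against 1843 ± 375 at 28 °C, in tolerant roots, and to 461 ± 95.1 at 10 °C, against 1450 ± 295 at 28 °C, in sensitive roots. Both started near the same level in the lines and ended lower in tolerant roots, with differences of −2.13 ± 0.41 and −2.55 ± 0.60 (adjusted p = 0.000529 and 0.00958, derived Wald test).

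In the class with the larger response in sensitive roots, the cold separated lines that were near each other in the warmth at 3 of the 4 named loci. LOC_Os10g31630 had 165 ± 27.5 normalised counts at 10 °C and 958 ± 151 at 28 °C in tolerant roots, and 12.1 ± 3.33 at 10 °C and 983 ± 155 at 28 °C in sensitive roots. LOC_Os09g31430 had 86.4 ± 21.7 at 10 °C and 2356 ± 563 at 28 °C in tolerant roots, and 10.01 ± 3.45 at 10 °C and 6299 ± 1503 at 28 °C in sensitive roots. Both loci fell in both lines and ended about an order of magnitude lower in sensitive than in tolerant roots in the cold, with differences of 3.80 ± 0.56 and 4.53 ± 0.78 (adjusted p = 2.18e-07 and 4.13e-05, derived Wald test). LOC_Os04g38950 rose to 1889 ± 186 at 10 °C, against 369 ± 37.8 at 28 °C, in tolerant roots, and to 5964 ± 580.4 at 10 °C, against 377 ± 38.7 at 28 °C, in sensitive roots. LOC_Os10g38110 rose to 85.7 ± 13.7 at 10 °C, against 43.6 ± 7.34 at 28 °C, in tolerant roots, and to 538 ± 76.4 at 10 °C, against 61.4 ± 9.90 at 28 °C, in sensitive roots. The lines were near each other in the warmth at both loci, and the differences were −1.63 ± 0.29 and −2.16 ± 0.46 (adjusted p = 7.79e-05 and 0.00206, derived Wald test).

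Opposite responses were found at 9 loci. LOC_Os01g41010, the 1 positive case, had 721 ± 78.5 normalised counts at 10 °C and 433 ± 47.4 at 28 °C in tolerant roots, and 368 ± 41.6 at 10 °C and 577 ± 62.7 at 28 °C in sensitive roots. Its change was 0.74 in tolerant roots and −0.65 in sensitive roots in the authors' deposited tables, and the difference was 1.38 ± 0.32 (adjusted p = 0.00781, derived Wald test). LOC_Os07g14740 had 106 ± 18.3 at 10 °C and 224 ± 36.2 at 28 °C in tolerant roots, and 281 ± 45.8 at 10 °C and 82.6 ± 14.2 at 28 °C in sensitive roots. LOC_Os07g28260 had 331 ± 42.6 at 10 °C and 542 ± 67.7 at 28 °C in tolerant roots, and 1730 ± 213 at 10 °C and 742 ± 92.1 at 28 °C in sensitive roots. Both fell in tolerant and rose in sensitive roots, with differences of −2.84 ± 0.48 and −1.93 ± 0.36 (adjusted p = 2.56e-05 and 0.000263, derived Wald test). At an adjusted p under 0.01 for each line's own response, 1 of the 9 loci still had both calls.

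**Figure D3:**
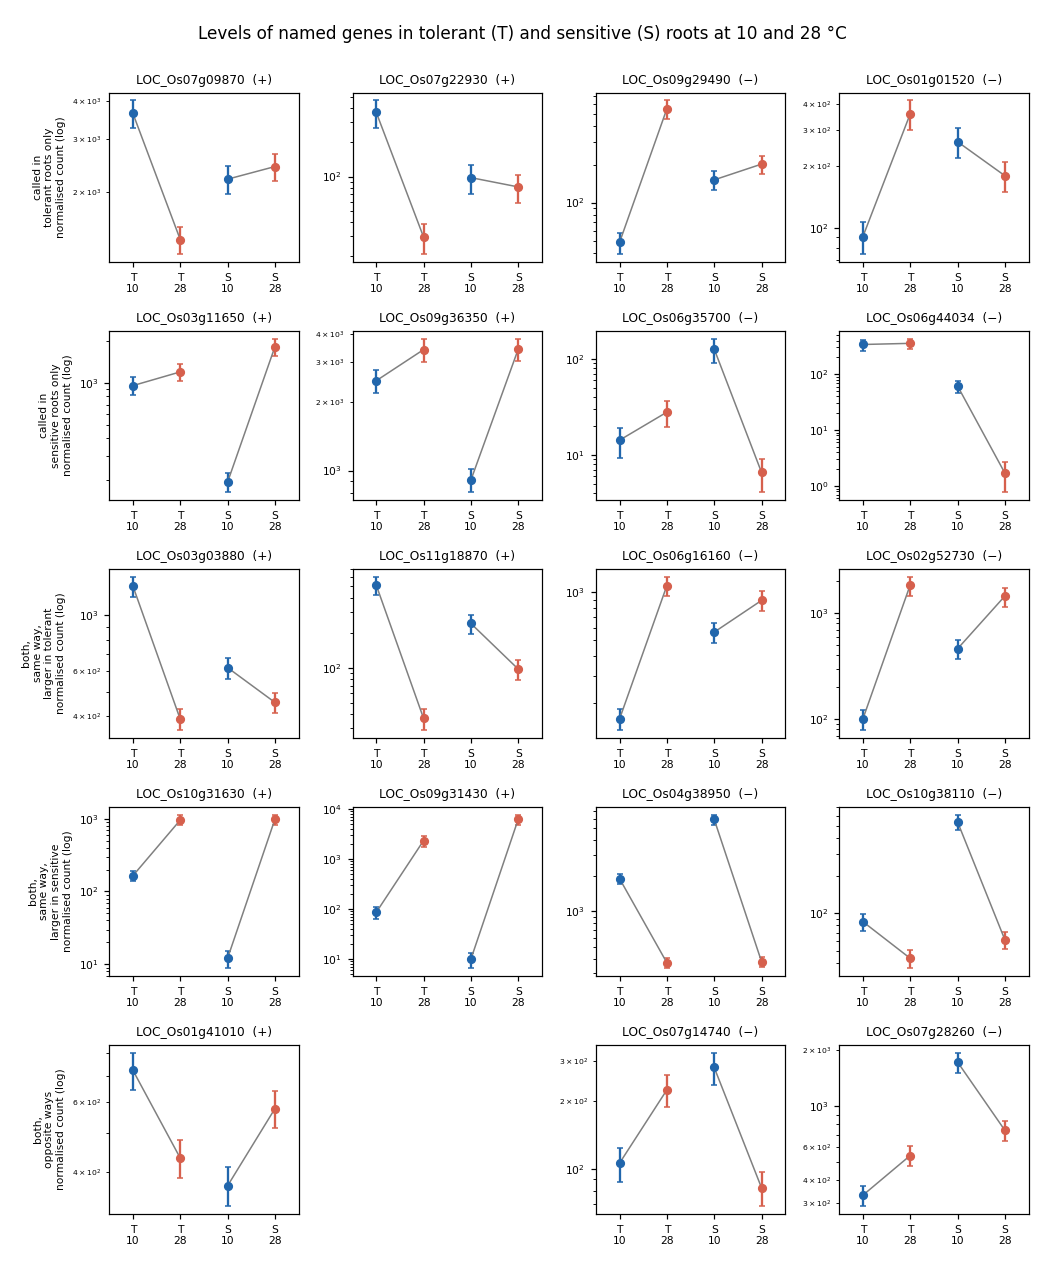
Levels in normalised counts (log axis) of the 19 named loci with at least 3 reads in every group, in tolerant (T) and sensitive (S) roots at 10 °C (blue) and 28 °C (red), with bars for the standard error. Each row of panels is a class, (+) and (−) give the sign of the difference, and panels such as LOC_Os09g29490, with 48.4 and 552 in tolerant against 151 and 201 in sensitive roots, show the order of the lines turning with temperature.

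In 5 called loci a group held 0 reads, and for these a fold is a lower bound against a floor of 3 reads over the group. Read numbers, here and elsewhere, were calculated from fitted levels and size factors and rounded, since no counts were given. The naming rule took up to 2 per sign with the highest level in another group, and the fifth, LOC_Os01g09470, was added after its values were seen. LOC_Os10g31540 had 30.2 ± 5.85 normalised counts at 10 °C and 1004 ± 140 at 28 °C in tolerant roots. Sensitive roots had 0 reads at 10 °C and 1079 ± 150.4 at 28 °C, so the level was at least 589-fold lower in their cold. LOC_Os08g08960 had 20.6 ± 6.46 at 10 °C and 48.0 ± 13.5 at 28 °C in tolerant roots, against 0 reads at 10 °C and 119 ± 32.5 at 28 °C in sensitive roots, at least 64.9-fold lower in the cold. LOC_Os08g39850 had 39.4 ± 17.0 at 10 °C and 4.90 ± 2.47 at 28 °C in tolerant roots, and 225 ± 94.0 at 10 °C in sensitive roots, which held 0 reads at 28 °C and were at least 175-fold higher in the cold. LOC_Os07g12540 had 0 reads at 10 °C and 7 reads at 28 °C in tolerant roots, which allows only a fold of at least 1.70 lower, while sensitive roots had 305 ± 128 at 10 °C and 30.2 ± 13.1 at 28 °C. Its call was lost when no filter on low means was applied (adjusted p = 0.0658, derived Wald test). LOC_Os01g09470 had 0 reads at 10 °C and 54.5 ± 17.6 at 28 °C in tolerant roots, at least 32.9-fold lower in the cold, and 10.3 ± 4.10 at 10 °C and 17.9 ± 6.24 at 28 °C in sensitive roots (adjusted p of the difference = 0.0131, derived Wald test).

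The difference of responses can be read equally as a change in the gap between the lines, tolerant over sensitive, with temperature. Over all loci with an adjusted p in the authors' deposited tables, the gap was called at 681 of 23446 loci at 10 °C (2.90%) and at 211 of 27576 at 28 °C (0.765%). Of the 163 loci, 111 had a called gap at 10 °C and not at 28 °C, 6 at 28 °C and not at 10 °C, 9 at both temperatures, and 37 at neither. At 4 of the 9 the gap was called in opposite directions. All 56 loci with a positive difference had the higher level in tolerant roots at 10 °C, by a median log2 gap of 1.39, and 49 of them were called at that temperature alone. Among the 107 with a negative difference, 104 had the lower level in tolerant roots at 10 °C (median −1.40) and 98 the higher level there at 28 °C (median 0.87), called or not. The gaps come from the same libraries as the difference and are a description of it.

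Across all loci with a mean of at least 20, the difference varied with the size and sign of the response shared by the lines. For 864 loci whose mean log2 change over both lines was under −3, the median difference was 0.32. It was 0.17 for 3721 loci between −3 and −1, 0.12 for 11440 loci between −1 and 1, and −0.14 for 3242 loci between 1 and 3. For 865 loci above 3 it was −0.86, and 78.2% of these had a smaller rise in tolerant roots, where the median log2 change was 3.97, against 4.92 in sensitive roots. Strong shared rises were thus mostly smaller in tolerant roots, and the median at strong falls was nearer to 0 than that at strong rises. Of the 864 loci under −3, 24 passed the test singly, 21 positive and 3 negative. Of the 865 above 3, 10 passed, 1 positive and 9 negative. These stand beside 162 of all 20132 loci with a mean of at least 20, and 0.622% of all tested loci. With a mean of at least 100, the median was −0.77 above 3 and 0.46 under −3.

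**Figure D4:**
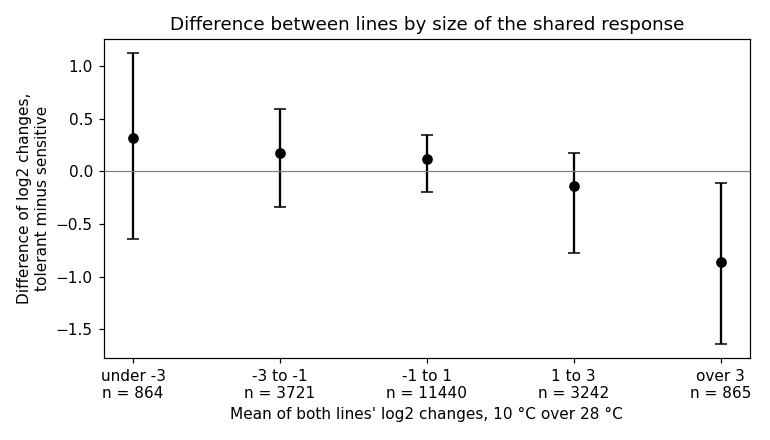
Difference of log2 changes, tolerant minus sensitive (vertical axis), for loci with a mean of at least 20 grouped by the mean log2 change of both lines (horizontal axis). Points are medians and bars run from the lower to the upper quartile; the median is 0.32 for the strongest falls and −0.86 for the strongest rises.

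Known gene groups were then read across the same test. The 28 lists of loci were written from general knowledge of rice with earlier results of these data known, no membership could be checked, and list loci are therefore given without an ID. They held 358 loci, of which 330 were tested and 8 were called, 6 positive and 2 negative, in 4 lists. The other 24 lists, with 269 tested loci, had 0 calls in the derived Wald test and 27 loci at an unadjusted p under 0.05, 8 positive and 19 negative. Calls in a list stand beside 0.214% positive and 0.408% negative over all tested loci. Counts at an unadjusted p under 0.05 stand beside 3.06% positive and 4.99% negative, and medians beside 0.03. Because the difference varied with the shared response, lists that rose or fell strongly also stand beside the medians by size of response given above.

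Among cell wall genes, the cellulose synthases, whose complexes at the plasma membrane spin cellulose microfibrils, had differences of a single sign. By the authors' deposited tables, falls were called at 8 of 9 loci in tolerant roots and at 8 of 9 in sensitive roots, and the median log2 change was −1.27 in tolerant roots and −2.27 in sensitive roots. The difference was positive at 9 of 9 loci, with a median of 1.16 and a range of 0.27 to 1.66, and 8 of 9 had an unadjusted p under 0.05. Only 2 passed the adjusted threshold. The first had 742 ± 83.1 normalised counts at 10 °C and 2744 ± 300 at 28 °C in tolerant roots, and 257 ± 30.7 at 10 °C and 3012 ± 329 at 28 °C in sensitive roots, a difference of 1.66 ± 0.32 (adjusted p = 0.000529, derived Wald test). The second had 804 ± 95.7 at 10 °C and 3559 ± 415 at 28 °C in tolerant roots, and 398 ± 48.9 at 10 °C and 5016 ± 585 at 28 °C in sensitive roots, a difference of 1.51 ± 0.34 (adjusted p = 0.00697, derived Wald test). Both were at least 2-fold higher in tolerant roots at 10 °C, and at 28 °C the gap between the lines was not called for either in the authors' deposited table.

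A stretch of chromosome 10 written as glycine-rich cell wall proteins held 4 calls among 20 tested loci, all positive. Over the 20 loci 13 signs were positive and 7 negative, 5 positive and 1 negative had an unadjusted p under 0.05, and the median was 0.33. The 1 negative locus lay just outside the call, with a difference of −1.90 ± 0.53 (adjusted p = 0.0549, derived Wald test). Of the 20 loci, 6 were under 3 reads in a group, and without them the median was 0.28. Its loci lie side by side and may share reads, and how such reads were counted was not given in the sources used here. Expansins, which loosen the wall during growth, had 0 calls among 10 loci, 2 negative at an unadjusted p under 0.05, and a median of −0.51. Of the 10, 2 were under 3 reads in a group, and without them the median was −0.38. The enzymes of lignin monomers had 0 calls among 8 loci, 1 of each sign at an unadjusted p under 0.05, and a median of 0.00. DNA replication and mitosis genes fell in both lines, 15 of 15 in tolerant and 14 of 15 in sensitive roots in the authors' deposited tables. Their differences were positive at 13 of 15 loci with a median of 0.46, and 0 passed even an unadjusted p under 0.05.

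Among transporters, the aquaporins, channels that carry water across membranes, leaned negative. Plasma membrane aquaporins had 0 calls among 11 loci, 3 negative at an unadjusted p under 0.05, 10 of 11 signs negative and a median of −0.75. Tonoplast aquaporins had 0 calls among 8 loci, 3 negative at an unadjusted p under 0.05, 7 of 8 negative and a median of −0.996. The plasma membrane locus with the smallest p had 4736 ± 744 normalised counts at 10 °C and 8363 ± 1311 at 28 °C in tolerant roots, and 6593 ± 1035 at 10 °C and 4464 ± 701 at 28 °C in sensitive roots, a difference of −1.38 ± 0.45 (adjusted p = 0.158, derived Wald test). Genes of iron uptake and of phytosiderophores, the iron chelators that grasses secrete, leaned positive at 9 of 12 loci with a median of 1.24. By the authors' deposited tables, a total of 5 of the 12 fell in tolerant and 11 in sensitive roots, yet 0 differences were called and 1 of each sign had an unadjusted p under 0.05. The median standard error of these differences was 1.14, too wide for a difference of that size to pass.

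Cold, abscisic acid and clock genes had no called difference. DREB and ICE regulators had 0 calls among 8 loci, 0 at an unadjusted p under 0.05, and a median of −0.01. Their differences ran from −7.53 to 2.09 with a median standard error of 2.10, and 3 of the 8 were under 3 reads in a group. Errors that wide leave little room for a call, so equal responses cannot be read from its absence. Dehydrins and LEA3 proteins rose at 7 of 7 loci in each line in the authors' deposited tables, and 4 of the 7 were under 3 reads in a group, so that the size of their changes is uncertain. There were 0 calls and 1 positive at an unadjusted p under 0.05. The median difference was −0.57 over the 3 loci with at least 3 reads in every group and 0.53 over all 7 with fitted values. Genes of abscisic acid synthesis and breakdown had 0 calls among 9 loci, 1 positive and 2 negative at an unadjusted p under 0.05, and a median of −0.27, or −0.53 over the 8 with at least 3 reads in every group. Circadian clock genes had 0 calls and 0 loci at an unadjusted p under 0.05 among 12, with differences between −0.26 and 0.59.

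Jasmonate is a wound and defence hormone, and of 10 loci for its synthesis and perception 1 was called negative, 4 were negative at an unadjusted p under 0.05, and the median was −0.70. Over the 9 with at least 3 reads in every group, 4 were positive and 5 negative, with a median of −0.46. The called locus had 78.6 ± 24.5 normalised counts at 10 °C and 11.9 ± 4.18 at 28 °C in tolerant roots, and 368 ± 112 at 10 °C and 2.61 ± 1.32 at 28 °C in sensitive roots, the last from 6 reads. It was lower in tolerant roots at 10 °C, the gap at 28 °C was not called in the authors' deposited table (adjusted p = 0.705), and the difference was −4.41 ± 1.09 (adjusted p = 0.0165, derived Wald test). The JAZ repressors, which hold jasmonate responses back, had 0 calls and 0 loci at an unadjusted p under 0.05 among 12, and a median of −0.28. Stress NAC and WRKY transcription factors rose at 11 of 14 loci in each line in the authors' deposited tables, by a median log2 change of 3.39 in tolerant roots and 5.26 in sensitive roots. Their differences were negative at 10 of 14 loci with a median of −0.93, 0 were called, and 2 were negative at an unadjusted p under 0.05. Among all loci with a shared change above 3 and a mean of at least 20, the median was −0.86 and 78.2% were negative. Such a lean was thus not particular to this list. Diterpenoid phytoalexin enzymes, which make defence compounds, had a median of −2.53 over 8 loci, 3 of them under 3 reads in a group, 0 calls and 1 negative at an unadjusted p under 0.05. A chromosome 10 stretch written as tau glutathione S-transferases, detoxifying enzymes, was negative at 30 of 39 loci with a median of −0.60, 0 calls and 1 negative at an unadjusted p under 0.05. Of the 39, 6 were under 3 reads in a group, and without them the median was also −0.60.

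The remaining 10 lists had 0 calls each in the derived Wald test. In metabolism, the 8 loci of alcoholic fermentation and sucrose synthases, which keep energy supply going when oxygen is short, had 2 positive at an unadjusted p under 0.05 and a median of 0.41. The 14 loci of phenylpropanoid entry enzymes, which feed lignin and phenolic compounds, were negative at 13 of 14, with 1 at an unadjusted p under 0.05 and a median of −0.41, or −0.21 over the 13 with at least 3 reads in every group. Clade A PP2C phosphatases, which hold abscisic acid signalling back, had 1 of each sign at an unadjusted p under 0.05 among 8 loci and a median of −0.27. Catalases, superoxide dismutases and ascorbate peroxidases, which remove reactive oxygen, also had 1 of each sign among 14 loci, with a median of −0.01. The other 6 lists had 0 loci at an unadjusted p under 0.05. Their medians were −0.78 for 9 nitrate and ammonium transporters, 0.33 for 11 nitrogen assimilation enzymes, −0.44 for 14 loci of phosphate transport and SPX signalling, and −0.60 for 6 silicon, manganese and metal transporters. Of the nitrate and ammonium transporters, 1 was under 3 reads in a group, and without it their median was −0.57. For 5 loci of trehalose and proline synthesis the median was 0.27, and for 7 small heat shock proteins and HSP101 it was −0.62.

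**Figure D5:**
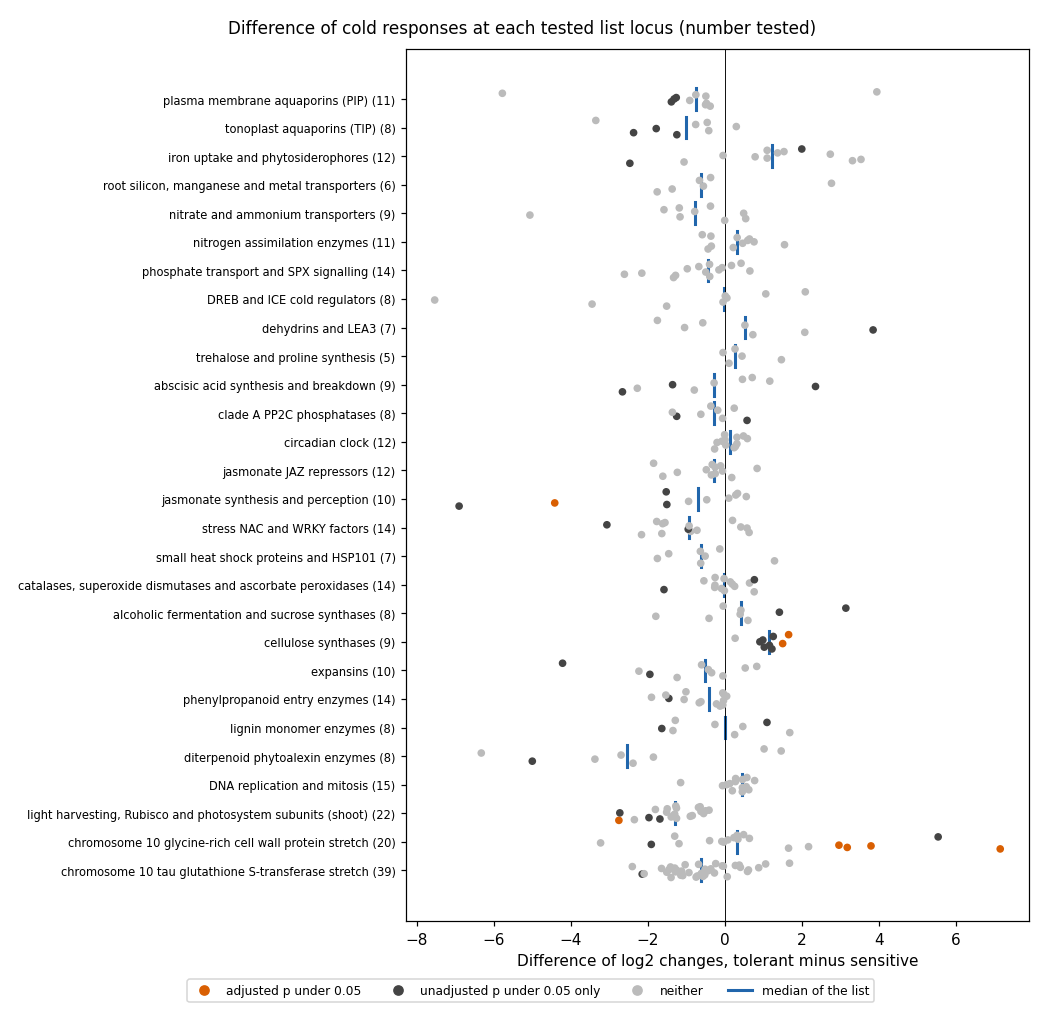
Difference of log2 changes, tolerant minus sensitive (horizontal axis), at each tested locus of the 28 lists (vertical axis, number tested in brackets). Orange points passed an adjusted p under 0.05, dark grey points an unadjusted p under 0.05 alone, light grey points neither, and blue ticks are list medians; the 9 cellulose synthase loci all lie right of 0 and the 22 shoot photosynthesis loci all left of it.

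Loci written as markers of green shoot tissue moved with the contrast. Their 22 tested loci for light harvesting, Rubisco and photosystem subunits, with reads in every group, had negative differences at 22 of 22, a median of −1.28, 1 call and 4 at an unadjusted p under 0.05. Their summed level was 3582 normalised counts at 10 °C and 12491 at 28 °C in tolerant roots, and 8790 at 10 °C and 12186 at 28 °C in sensitive roots. Single loci ranged from 13.4 to 918 in tolerant roots at 10 °C, 13.1 to 1622 in tolerant roots at 28 °C, 27.7 to 2831 in sensitive roots at 10 °C and 12.6 to 1957 in sensitive roots at 28 °C. None of the 22 was at 0 reads in any group. The called locus had 84.0 ± 19.5 at 10 °C and 747 ± 163 at 28 °C in tolerant roots, and 366 ± 81.1 at 10 °C and 485 ± 106 at 28 °C in sensitive roots, a difference of −2.75 ± 0.64 (adjusted p = 0.00942, derived Wald test). The 5 root markers summed to 28106 at 10 °C and 68974 at 28 °C in tolerant roots, and to 26548 at 10 °C and 53162 at 28 °C in sensitive roots. The highest level of a single root marker was 22735 at 10 °C and 29818 at 28 °C in tolerant roots, and 19083 and 18411 in sensitive roots. It was taken within each group, so these values need not belong to the same locus. Most of each sum at 10 °C was thus a single locus, and in sensitive roots the highest level did not fall as the sum did. With the shoot loci left out, 162 loci were called. The part of other tissue in the negative differences of other genes was not tested.

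By position, called loci lay on all 12 chromosomes. Their share was highest on chromosome 9, with 19 of 1478 tested loci (1.29%), and lowest on chromosome 3, with 10 of 3271 (0.306%). Locus numbers run along a chromosome, and 26 called loci fell into 11 runs in which neighbours were within 5 tested loci of each other. In 9 of the 11 runs all members had the same sign, while 107 of all 163 called loci were negative. How many such runs and shared signs would arise at random positions was not tested. The longest held 4 loci on chromosome 10, LOC_Os10g31540 and LOC_Os10g31630 among them, and all 4 were positive. By position they are the same 4 calls as in the chromosome 10 stretch among the cell wall lists, not further ones. Neighbouring loci can share reads where their sequences are alike, and their counting rule was not given in the sources used here.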

How the data were processed

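Root RNA of 4 groups with 2 libraries each was sequenced from poly-A RNA. The authors deposited 4 comparison tables, whose columns, per the file headers, are those of a DESeq2 results table. The mean normalised signal (counts over size factors), the log2 changes with their standard errors, the score (a Wald statistic), and each p-value are the authors' deposited values. The submitters' processing notes name Bowtie 0.12.7, and the deposited tables' name points to STAR. Build, annotation, counter, strand use and tool version were not given in the sources used here.

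Around the loop of 4 tables the log2 changes summed to 0 within 7.56e-14. The difference of responses was tested with a Wald test, its standard error taken from the squared standard errors of both responses, summed,, with a normal 2-sided p and Benjamini-Hochberg adjustment over 26199 loci. The same difference taken from the line gaps had standard errors equal to within 2.0e-06 in relative terms. Group levels came from the mean and the log2 changes, with a standard error from the dispersion implied by the deposited standard errors. Size factors came from loci seen as a single read. The reads of a group were calculated as its level times the sum of its size factors, rounded. Values of single libraries were not used here. Members, lists and the naming rule (in each class, 2 loci per sign with the smallest p and at least 3 reads in each group, and, with 0 reads in a group, up to 2 per sign with the highest level in another group) were chosen with earlier results of these data known. The reference table matched 0 locus IDs. Python 3.11.15, pandas 2.3.3, NumPy 2.4.6 and SciPy 1.17.1 were used.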

Additional observations from a re-analysis of the deposited data

Results flagged for a closer look

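The cold response differed between the lines, by a test of the difference itself, at 163 loci, and the named ones among them are listed with their difference of log2 changes, tolerant minus sensitive. For loci called in tolerant roots alone the difference was 1.52 at LOC_Os07g09870, 3.37 at LOC_Os07g22930, −3.10 at LOC_Os09g29490 and −2.53 at LOC_Os01g01520. For those called in sensitive roots alone it was 2.90 at LOC_Os03g11650, 1.46 at LOC_Os09g36350, −5.24 at LOC_Os06g35700 and −5.25 at LOC_Os06g44034. Where both lines changed the same way and tolerant roots by more, it was 1.28 at LOC_Os03g03880, 2.50 at LOC_Os11g18870, −2.13 at LOC_Os06g16160 and −2.55 at LOC_Os02g52730. With the larger change in sensitive roots, it was 3.80 at LOC_Os10g31630, 4.53 at LOC_Os09g31430, −1.63 at LOC_Os04g38950 and −2.16 at LOC_Os10g38110. Opposite responses gave 1.38 at LOC_Os01g41010, −2.84 at LOC_Os07g14740 and −1.93 at LOC_Os07g28260. At loci with 0 reads in a group the fitted value depends on how the model treats a 0 and is no bound. It was 7.16 at LOC_Os10g31540, 7.81 at LOC_Os08g08960, −7.12 at LOC_Os07g12540, −7.47 at LOC_Os08g39850 and −7.27 at LOC_Os01g09470.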

How the results depend on the processing

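The call depended most on the threshold. At an adjusted p under 0.01 (derived Wald test), 57 loci were called, 25 positive and 32 negative, so that 43.9% were positive, against 34.4% at 0.05. Above the median of mean expression 121 were called, of which 65 were negative and 46.3% positive. With an adjusted p under 0.01 for each line's own response, 1 called locus had opposite calls and 1 had a call in neither line. The total was 139 with no filter on low means, 173 with a mean of at least 20, 162 with at least 3 reads in each group, 161 with at least a 2-fold difference, and 140 with the statistics divided by their robust spread of 1.02. Chosen after seeing the data, 2 re-centrings on the median of well-expressed or of unresponsive loci (both 0.08) gave 172 calls, 26.7% positive, and 173 calls, 26.0% positive; leaving out the shoot loci, also chosen after seeing the data, gave 162. Under both re-centrings, of the lists described, the median of the lignin monomer enzymes turned negative (−0.07 and −0.08), and 12 of 15 DNA replication loci stayed positive. The stretch written as glycine-rich cell wall proteins then had 5 calls, against 4 in the main test. Over the settings that could change a call, 199 of 205 repeats of a named locus kept it and 6 lost it. No sign could reverse, since differences were unchanged or moved by 0.08 in the re-centrings. Settings that only left out other loci changed the adjustment alone, so a call kept there says little. LOC_Os07g12540 lost it in 3 of the 6, with an adjusted p of 0.0658 with no filter and 0.0631 with the robust spread, and LOC_Os07g22930, LOC_Os08g39850 and LOC_Os01g09470 lost it at 0.01. No paired analysis was possible because the deposited tables hold no values of single libraries, and for the same reason neither leaving out single libraries nor another count test could be tried. Depth limits loci with few reads in the cold, where libraries were shallower.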

Other observations

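A pair of called loci, chosen after their values were seen, carried the same number on chromosomes 11 and 12 and had near-equal levels. The chromosome 11 locus had 1406 ± 141 normalised counts at 10 °C and 3463 ± 341 at 28 °C in tolerant roots, and 2540 ± 252 at 10 °C and 2915 ± 288 at 28 °C in sensitive roots. The chromosome 12 locus had 1424 ± 145 at 10 °C and 3486 ± 351 at 28 °C in tolerant roots, and 2539 ± 257 at 10 °C and 2925 ± 295 at 28 °C in sensitive roots. Their differences of log2 changes were −1.10 ± 0.29 and −1.09 ± 0.29. The counting of reads that match both was not given in the sources used here.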
